A study of Homo sapiens with 18 samples.

Results

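AP-1 is a family of transcription factors built from paired FOS and JUN proteins. Genes of this family were followed here with EGR1 and MAFF across 6 ovarian cancer cell lines. Of the 10 gene symbols FOS, FOSL1, FOSL2, JUN, JUNB, JUND, EGR1, ATF3, BATF3 and MAFF, 8 matched a row of the expression table of 12853 genes. ATF3 and BATF3 were not analysed here. The 10 symbols were listed by name, without a rule on any measured value, but with earlier results of these data known. RNA-seq had been made from rRNA-depleted total RNA with a strand-specific kit, in 18 libraries, 3 for each line. The lines form 3 pairs, each of a line labelled sensitive and a line labelled resistant to platinum. A2780 (labelled endometrial/ovarian cancer, sensitive) was paired with CP70, a resistant derivative of it raised in culture. PEA1 (sensitive) and PEA2 (resistant) came from 1 patient with high-grade serous ovarian cancer, before platinum treatment and at relapse. PEO1 (sensitive) and PEO4 (resistant) are a second pair of this kind, from another donor who had received platinum drugs by the time each was established, PEO4 being the line from the resistant disease. All lines were grown in RPMI-1640 with glutamine and fetal bovine serum, and the labels name no drug treatment of these cells. Each condition is therefore 1 established line, so the differences below are between lines, and what resistance itself adds cannot be told apart from other differences between 2 lines of a pair. Nothing says that the 3 libraries of a line came from separate cultures, so p-values measure only the spread between these libraries.

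FOS proteins (FOS, FOSL1, FOSL2) bind DNA only as partners of another protein, most often a JUN protein (JUN, JUNB, JUND), whereas JUN proteins can also pair among themselves. In resting cells FOS and EGR1 are transcribed little, and within minutes of a growth factor or stress signal MAP kinases switch them on through serum response factor and its partners, which is why they are called immediate early genes. FOSL1 and FOSL2 follow later and last longer, and JUND is present in most cells at all times. EGR1 is a zinc finger factor that binds GC-rich promoters, and MAFF is a small MAF protein that lacks an activating domain of its own and pairs with other basic leucine zipper factors.

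The reads on the 12853 genes ranged from 1344098 to 7067336 per library, fewest in PEA1. At these depths 3 reads correspond to between 0.452 and 2.18 CPM, the read count scaled to the size of the library. Levels are given as CPM with 0.5 reads added, as deposited, or as their log2. The cells were checked against 10 epithelial and Müllerian markers. All 10 were seen above 3 reads in PEA2, PEO1 and PEO4. In A2780, 9 of the 10 markers stayed at 3 reads or fewer in every library (EPCAM was the exception), and in CP70 6 did. KRT19, KRT7 and MSLN stayed at 3 reads or fewer in PEA1. The summed level of the 10 markers was 435 to 593 CPM in PEA1 and 4195 to 4459 CPM in PEA2. In that pair 8 of 10 rose, beside 32.5% of all genes. The leukocyte gene PTPRC (20.3 to 25.3 CPM) and the endothelial gene CDH5 (25.5 to 36.4 CPM) were above 3 reads in PEA2 and in no other line. In the same pair 1 of 6 fibroblast markers rose and 2 fell, beside 32.5% and 29.4% of all genes. The summed level of the 6 was 368 to 451 CPM in PEA1 and 4.32 to 8.0 CPM in PEA2. This fall was that of COL1A1, with 513 to 649 reads in PEA1 and 7 to 11 in PEA2. The others were near the floor: COL1A2 rose from 0 reads to 1 to 5, and THY1 fell from 0 to 2 reads to 0. COL3A1, DCN and LUM had 0 reads in every library of both lines. The part of these markers in the differences between PEA1 and PEA2 was not tested.

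The promoters of 4 of the genes are shown. EGR1 was higher in the resistant line of every pair, JUN and MAFF had the largest changes within a pair among the genes with a RefSeq promoter, and FOS is the founding immediate early gene. Each run is the 250 bases before the RefSeq start site on GRCh38.p14, written 5′ to 3′ on the gene's strand, and the capitals mark motif matches. EGR1 lies at chr5:138465229-138465478 (+), JUN at chr1:58784048-58784297 (-), FOS at chr14:75278578-75278827 (+) and MAFF, at the first of its 2 listed start sites, at chr22:38201744-38201993 (+).
EGR1: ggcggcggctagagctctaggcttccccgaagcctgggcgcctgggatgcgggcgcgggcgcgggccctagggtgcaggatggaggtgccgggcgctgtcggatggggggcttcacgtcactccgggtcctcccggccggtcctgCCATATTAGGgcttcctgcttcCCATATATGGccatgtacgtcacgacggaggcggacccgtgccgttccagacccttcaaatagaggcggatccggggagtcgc
JUN: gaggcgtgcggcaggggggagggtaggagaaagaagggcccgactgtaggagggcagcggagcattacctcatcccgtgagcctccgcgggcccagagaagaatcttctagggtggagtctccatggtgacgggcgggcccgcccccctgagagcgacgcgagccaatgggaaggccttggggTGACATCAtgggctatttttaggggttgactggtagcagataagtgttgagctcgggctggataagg
FOS: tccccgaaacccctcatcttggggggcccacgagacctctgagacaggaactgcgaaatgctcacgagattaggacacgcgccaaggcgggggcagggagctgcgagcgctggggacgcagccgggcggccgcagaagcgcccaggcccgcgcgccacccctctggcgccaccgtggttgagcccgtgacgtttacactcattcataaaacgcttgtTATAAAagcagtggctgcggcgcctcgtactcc
MAFF: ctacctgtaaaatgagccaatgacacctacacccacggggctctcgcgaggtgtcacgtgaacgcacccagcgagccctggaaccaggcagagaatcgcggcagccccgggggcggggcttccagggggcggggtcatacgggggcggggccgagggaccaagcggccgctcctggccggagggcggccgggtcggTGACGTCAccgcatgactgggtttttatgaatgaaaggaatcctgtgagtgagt
The motifs were searched on both strands and do not overlap each other in these runs. EGR1 held 2 matches to the CArG box, the element bound by serum response factor, starting 105 and 83 bases before the start site. Of 35116 RefSeq promoters of the same length, 1.16% held a CArG box. JUN held TGACATCA, a variant AP-1 site, starting 67 bases before the start (2.37% of promoters). MAFF held the cyclic AMP response element TGACGTCA 54 bases before the start, and JUND held it 200 bases before the start (1.65% of promoters). The TATA box TATAAA started 33 bases before the FOS start and 31 bases before the JUNB start (10.7% of promoters). The classical AP-1 site TGACTCA, found in 4.2% of promoters, was not in these windows of the 7 genes with a RefSeq entry. FOSL1 had no entry.

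At least 3 of the 8 genes differed within every pair of lines, and the set of genes and their directions varied by pair. Between A2780 and CP70, 6 genes rose (FOSL1, FOSL2, JUN, JUNB, JUND and EGR1) and 0 fell by limma at an FDR below 0.05 (the false discovery rate, Benjamini-Hochberg adjusted over 12853 genes). Over all 12853 genes, 22.2% rose and 17.7% fell in this pair. Between PEA1 and PEA2, 5 genes rose (FOS, JUNB, JUND, EGR1 and MAFF) and 2 fell (FOSL1 and JUN), against 32.5% and 29.4% of all genes. From PEO1 to PEO4, 3 genes rose (FOS, JUN and EGR1) and 0 fell, against 19.6% and 21.9% of all genes. At an unadjusted p below 0.05 by limma, 0 genes were lower in CP70 and 1, MAFF, was lower in PEO4. The median log2 fold change of the 8 genes was 1.33 for A2780 and CP70, 1.09 for PEA1 and PEA2, and 0.28 for PEO1 and PEO4, beside medians over all genes of -0.025, 0.0053 and -0.017. With |log2FC| above 2 added, the threshold the study used, 3 genes passed in CP70 (FOSL1, FOSL2 and JUN), 2 in PEA2 (FOS and MAFF) and 1 in PEO4 (EGR1), beside 9.06%, 14.1% and 6.22% of all genes. The 3 libraries of the resistant line lay wholly above or below those of the sensitive line for 8, 7 and 6 of the 8 genes, beside 54.6%, 62.6% and 57.5% of all genes. EGR1 was the gene of the 8 that rose in all 3 pairs, which 1.59% of all genes did (205 genes).

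**Figure D1:**
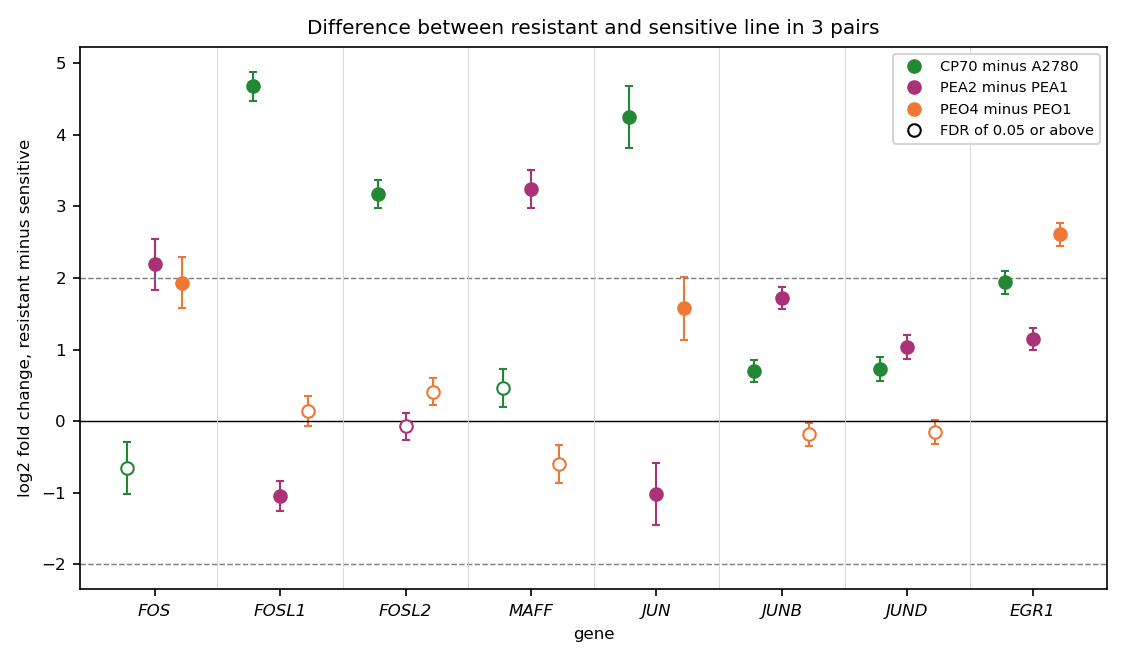
Log2 fold change (resistant minus sensitive line) of each gene in 3 pairs of lines, from limma, with bars for the standard error. Filled points have an FDR below 0.05, open points do not, and dashed lines mark log2 fold changes of -2 and 2. FOSL1, FOSL2 and JUN stand above 3 in the A2780 pair, MAFF stands above 3 in the PEA pair, and EGR1 is above 0 with an FDR below 0.05 in all 3 pairs.

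FOSL1 encodes FRA-1, a FOS protein without the strong activating end of FOS that is abundant in many invasive carcinomas. FOSL1 (ENSG00000175592, GRCh37 chr11:65659520-65668044, minus strand) was close to absent in A2780, at 1.26, 2.45 and 1.12 CPM (4, 9 and 2 reads), and stood at 38.4, 35.4 and 41.9 CPM in the 3 CP70 libraries (234, 149 and 159 reads). The CP70 libraries were all far above those of A2780. The log2 fold change was 4.67 with a standard error of 0.21 (limma, FDR 2.8e-13), and the ratio of the summed reads was 24.8, with a 95% exact interval of 14.9 to 44.6 that covers counting error only. After quantile normalization the log2 fold change was 3.43 (limma, FDR 4.0e-12). In the PEA pair the direction was the other one, from 483, 451 and 531 CPM in PEA1 to 280, 208 and 225 CPM in PEA2. Here too the libraries did not overlap, and FOSL1 fell by 1.04 on the log2 scale, with a standard error of 0.21 (limma, FDR 2.1e-04). PEO1 held 89.9, 108 and 107 CPM and PEO4 115, 94.3 and 129 CPM. These ranges overlapped, and the difference of 0.14 in log2 did not pass (standard error 0.21, limma, FDR 0.63). The level of CP70 was thus raised over A2780 but remained below each of the 4 lines from patients with serous disease.

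FOSL2 encodes FRA-2, the other late and long-lived FOS protein. The gene (ENSG00000075426, GRCh37 chr2:28615315-28640184, plus strand) overlaps FOSL2-AS1 on the other strand and ENSG00000270640 on its own strand, and the strand setting used in counting is not given in the sources used here. In A2780 FOSL2 stood at 7.97, 4.51 and 9.61 CPM and in CP70 at 60.9, 62.7 and 66.4 CPM. This rise of 3.17 in log2 had a standard error of 0.19 (limma, FDR 3.2e-11). The other 4 lines lay close together between 246 and 483 CPM. From PEA1 (362, 275 and 270 CPM) to PEA2 (246, 336 and 280 CPM) the libraries overlapped, with a difference of -0.07 in log2 (standard error 0.19, limma, FDR 0.77). PEO4 (451, 450 and 483 CPM) lay above PEO1 (318, 332 and 393 CPM) in every library, but the difference of 0.41 in log2 did not pass in the fit of all lines (standard error 0.19, limma, FDR 0.092). The same difference had an FDR of 0.0014 by limma when the PEO pair was fitted alone, and 0.0049 with voom weights (0.40 in log2).

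FOS, the founding member and the most short-lived of the family, ranged from the 11.4th percentile of all genes in PEA1 to the 42.2th in PEO4 (means per line). FOS (ENSG00000170345, GRCh37 chr14:75745529-75748933, plus strand) had 1.82, 3.92 and 3.74 CPM in PEA1, which rests on 2, 5 and 6 reads, and 9.87, 12.5 and 20.4 CPM in PEA2. The rise was 2.19 in log2, with a standard error of 0.36 (limma, FDR 2.5e-05). FOS also rose from PEO1 (7.02, 4.83 and 6.26 CPM) to PEO4 (16.4, 24.2 and 29.8 CPM), by 1.94 in log2 (standard error 0.36, limma, FDR 1.9e-04), or by 2.58 after quantile normalization. In both pairs every library of the resistant line was above every library of the sensitive line. In the A2780 pair FOS moved the other way, from 7.13, 6.32 and 5.14 CPM in A2780 to 2.87, 5.10 and 4.08 CPM in CP70, and this difference of -0.65 in log2 did not pass (standard error 0.36, limma, FDR 0.16).

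JUN, the founding member of the other family and a target of the JNK kinases, showed the lowest level of all 8 genes in A2780. JUN (ENSG00000177606, GRCh37 chr1:59242517-59249720, minus strand) had 0, 1 and 2 reads in the 3 A2780 libraries, against 42, 40 and 23 reads in CP70 (6.96, 9.60 and 6.18 CPM). JUN rose by 4.25 in log2, with a standard error of 0.44 (limma, FDR 1.1e-07). The ratio of the summed reads, 3 against 105, was 24.0 with a 95% exact counting interval of 7.99 to 118. The size of the fitted change rests on these few reads. It was 2.90 in log2 after quantile normalization, 3.08 with 2 reads added to each count, 3.5 without A2780 replicate 1 and 5.0 without A2780 replicate 3, and it passed in each. In the PEA pair JUN went down, from 83.9, 110 and 90.0 CPM in PEA1 to 45.6, 43.0 and 51.0 CPM in PEA2. The libraries did not overlap, and JUN fell by 1.02 on the log2 scale, but the FDR of 0.049 by limma (standard error 0.44) lay at the threshold. This call was lost when any 1 of the 6 PEA1 or PEA2 libraries was left out (limma FDR 0.067 without PEA1 replicate 1, 0.13 without PEA1 replicate 2, 0.081 without PEA1 replicate 3, 0.091 without PEA2 replicate 1, 0.11 without PEA2 replicate 2 and 0.072 without PEA2 replicate 3). The fall of JUN in the PEA pair kept its call with voom weights, with a replicate block and with that pair fitted alone. Over the other settings its FDR ran from 1.9e-05 to 0.13 by limma. From PEO1 (36.1, 33.1 and 43.8 CPM) to PEO4 (102, 109 and 124 CPM) JUN rose by 1.57 in log2 (standard error 0.44, limma, FDR 0.0065). The standard error is the same in the 3 pairs because 1 fit shares the spread. The wide spread of the A2780 libraries (SD 1.5 in log2, against 0.20 in PEA1 and 0.12 in PEA2) enters it.

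JUNB, a JUN protein that often opposes JUN in growth control, and JUND, the JUN protein of resting cells, rose in the A2780 and PEA pairs. JUNB (ENSG00000171223, GRCh37 chr19:12902300-12904129, plus strand) overlaps HOOK2 on the other strand. It rose from 24.2, 16.6 and 26.1 CPM in A2780 to 36.9, 32.8 and 37.2 CPM in CP70, by 0.70 in log2 (standard error 0.16, limma, FDR 0.0012). The rise in the PEA pair was 1.72 in log2 (standard error 0.16, limma, FDR 1.1e-08), from 14.2, 11.8 and 15.8 CPM to 40.3, 49.7 and 47.3 CPM. PEO1 and PEO4 held the highest JUNB levels, 141 to 174 and 132 to 145 CPM, and their ranges overlapped (log2 difference -0.19, standard error 0.16, limma, FDR 0.37). JUND (ENSG00000130522, GRCh37 chr19:18390504-18392432, minus strand) rose by 0.73 in the A2780 pair and by 1.04 in the PEA pair (log2, standard error 0.17 for both, limma, FDR 0.0014 and 1.9e-05). In PEA2 its 3 libraries were uneven, at 52.5, 98.0 and 62.0 CPM, against 35.2, 35.3 and 29.6 CPM in PEA1. For the PEO pair the JUND difference was -0.15 in log2 (standard error 0.17, limma, FDR 0.49).

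Divided by the length of the canonical transcript in the GENCODE annotation of GRCh37, levels can be compared between genes, and the make-up of both families differed between lines. Here the FOS family is the sum of FOS, FOSL1 and FOSL2, without FOSB. The FOS family of A2780 was small and mostly FOS, at 59.6% ± 4.9 (SD, n = 3) of a summed level of 4.79 ± 0.47 CPM per kilobase. In CP70 the sum was 33.9 ± 2.1 CPM per kilobase, and FOSL1 made up 66.7% ± 2.4 of it and FOS 5.49% ± 1.7. PEA1 had the highest FOS family sum, 333 ± 23.5 CPM per kilobase, of which FOSL1 was 86.1% ± 2.2 and FOS 0.41% ± 0.18. In PEA2 FOSL1 was 73.6% ± 5.8 of 189 ± 14.6 CPM per kilobase. PEO1 and PEO4 held FOSL1 and FOSL2 at about even shares, with FOSL2 at 45.3% ± 2.1 and 47.3% ± 2.8. FOS took 2.48% ± 0.63 in PEO1 and 7.56% ± 1.8 in PEO4.

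For the JUN family, JUND was the main transcript in A2780 (74.6% ± 3.0) and CP70 (73.0% ± 0.19), and JUN took 0.23% ± 0.24 and 2.87% ± 0.80. JUN led in PEA1, where it was 54.0% ± 4.0 of 53.5 ± 3.9 CPM per kilobase, and its share was 19.3% ± 4.2 in PEA2, where JUND led with 47.5% ± 7.2. JUNB led in PEO1 (56.0% ± 3.5) and PEO4 (47.1% ± 1.4), while JUN was 7.61% ± 1.3 in PEO1 and 21.6% ± 0.90 in PEO4. The summed JUN family level was highest in PEO1 and PEO4, at 152 ± 7.0 and 158 ± 9.8 CPM per kilobase, and lowest in A2780 and PEA1. These shares are descriptions and were given no test.

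**Figure D2:**
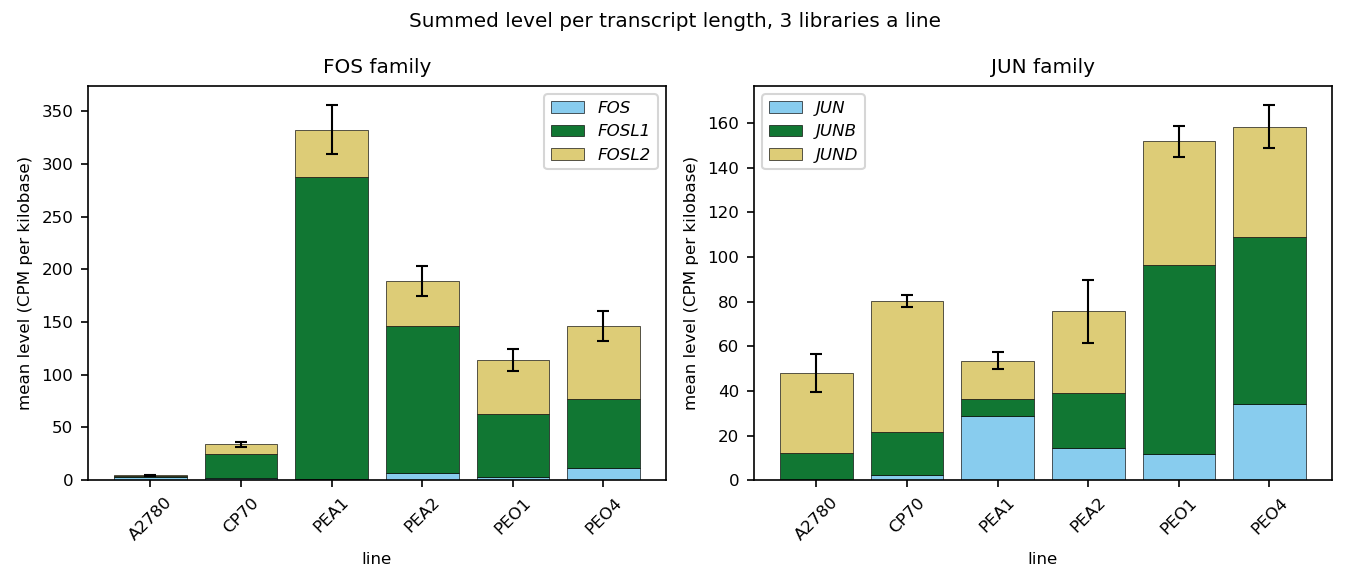
Mean level per kilobase of transcript of the FOS family (FOS, FOSL1 and FOSL2, left) and the JUN family (right) in each line, stacked by gene. Bars on top are the SD of the summed level over 3 libraries. FOSL1 forms most of the FOS family in CP70, PEA1 and PEA2, and 52.3% of it in PEO1. JUN is the largest part of the JUN family in PEA1.

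EGR1 (ENSG00000120738, GRCh37 chr5:137801168-137804992, plus strand), the factor whose promoter carries the 2 CArG boxes printed above, was higher in the resistant line of each pair. A2780 held 11.3, 19.2 and 15 CPM and CP70 53.7, 54.6 and 62.4 CPM, a 3.83-fold rise (log2 1.94, standard error 0.16, limma, FDR 3.4e-09). In PEA1 the values were 38.1, 36.0 and 36.5 CPM and in PEA2 84.0, 82.5 and 78.4 CPM, a 2.21-fold rise (log2 1.15, standard error 0.16, limma, FDR 3.1e-06). PEO1 held 8.65, 9.48 and 10.0 CPM and PEO4 54.5, 62.6 and 54.6 CPM, a 6.09-fold rise (log2 2.61, standard error 0.16, limma, FDR 1.2e-10). The libraries of the paired lines did not overlap in any pair. The residual SD of EGR1 within lines was 0.18 in log2, at the 29.1th percentile of all genes, and the spread was widest in A2780 (SD 0.38). The 3 rises were not equal in size. That of the PEO pair was larger than that of the PEA pair by 1.46 in log2 (standard error 0.22, limma, FDR 1.4e-05) and larger than that of the A2780 pair by 0.67 (standard error 0.22, limma, FDR 0.018). This last difference had an FDR of 0.054 without A2780 replicate 2.

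MAFF (ENSG00000185022, GRCh37 chr22:38596774-38612514, plus strand; PLA2G6 overlaps it on the other strand) stood out in 1 line. The PEA2 libraries held 50.4, 93.1 and 76.6 CPM, while the 15 libraries of the other lines held between 3.85 and 12.5 CPM. PEA1, the paired line, had 7.63, 6.77 and 8.34 CPM, and MAFF rose by 3.24 in log2 (standard error 0.27, limma, FDR 2.7e-09). CP70 (10.1, 9.12 and 12.5 CPM) lay just above A2780 (7.13, 8.90 and 6.93 CPM), a difference of 0.46 in log2 that did not pass (standard error 0.27, limma, FDR 0.18). PEO4 (5.71, 5.84 and 3.85 CPM) lay below PEO1 (6.04, 9.12 and 8.06 CPM), and this difference of -0.60 in log2 did not pass either (standard error 0.27, limma, FDR 0.081). It did without PEO1 replicate 1 (limma, FDR 0.047).

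**Figure D3:**
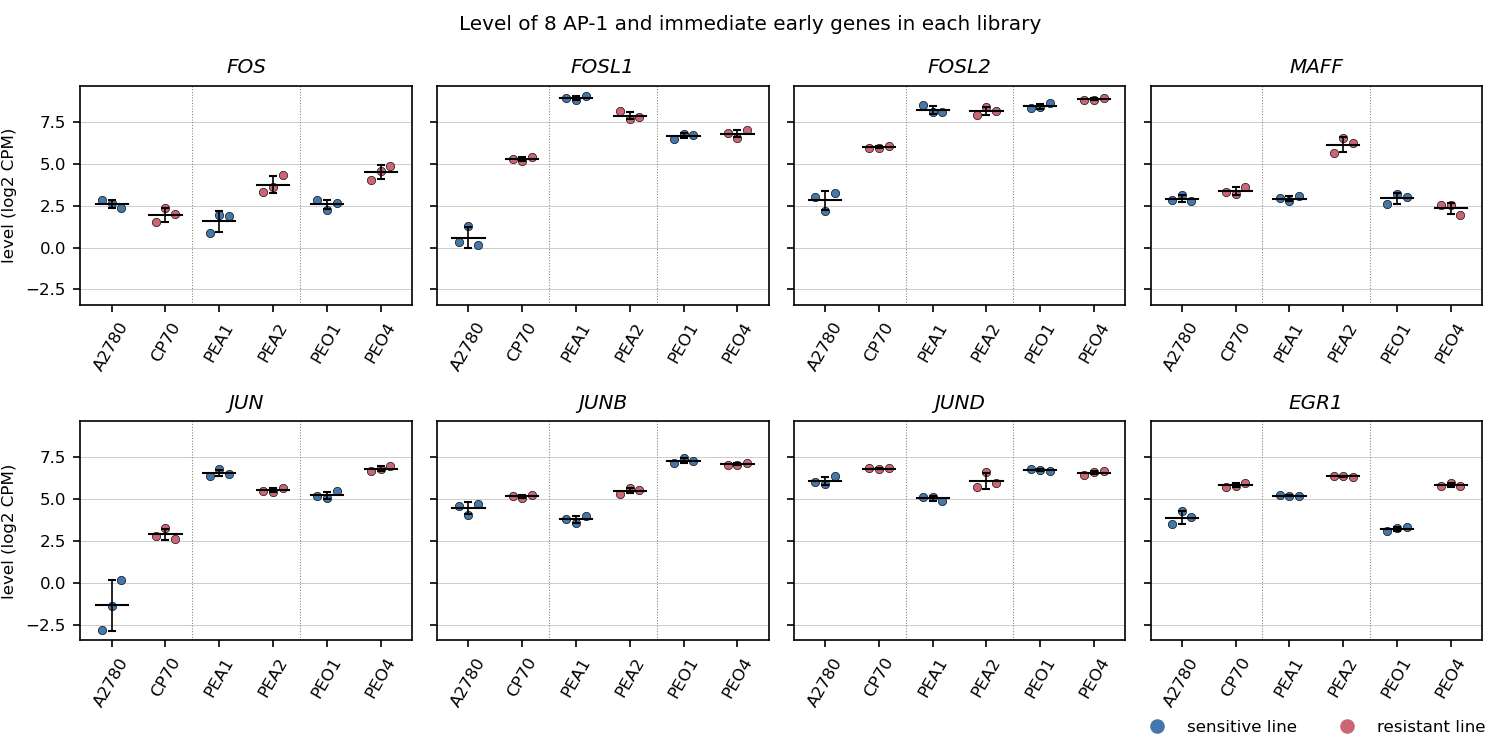
Level of each gene (log2 CPM) in the 18 libraries, by line. Points are libraries, blue for the sensitive and red for the resistant line of a pair, horizontal bars are means and vertical bars the SD (n = 3). JUN and FOSL1 are lowest in A2780, MAFF is high in PEA2 and in no other line, and the EGR1 points of CP70, PEA2 and PEO4 lie above those of A2780, PEA1 and PEO1.

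The direct tests of whether a gene differed more in 1 pair than in another, made in the same limma fit, passed for 7 of 8 genes between the PEA and A2780 pairs, 8 of 8 between the PEO and A2780 pairs and 6 of 8 between the PEO and PEA pairs. Among all genes these shares were 57.5%, 47.5% and 58.7%. The largest of these differences was in FOSL1, whose change was lower by 5.72 in log2 in the PEA pair than in the A2780 pair (-5.72, standard error 0.29, limma, FDR 3.3e-12). JUN followed (-5.26, standard error 0.62, limma, FDR 5.0e-07). For FOS the rises of the PEO and PEA pairs were not shown to differ (-0.25 in log2, standard error 0.51, limma, FDR 0.69), while both differed from the change in the A2780 pair. A model over all pairs, with the pair and the sensitivity as terms, called 5 of 8 genes higher in resistant lines (FOS, FOSL2, JUNB, JUND and EGR1), beside 24.1% of all genes called in either direction. EGR1 had the largest coefficient, 1.90 in log2 (standard error 0.17, limma, FDR 1.9e-06). That model counts the 3 libraries of a line as independent. FOS lost its call when any 1 PEA1, PEA2 or PEO1 library or PEO4 replicate 2 or 3 was left out (11 settings, limma FDR 0.052 to 0.069), and FOSL2 without A2780 replicate 1 or any 1 CP70 library (4 settings, limma FDR 0.051 to 0.053). With a replicate block FOS, FOSL2, JUNB and JUND all lost theirs (limma FDR 0.13, 0.13, 0.098 and 0.097). JUN, not called with all libraries (limma FDR 0.054), passed without any 1 PEA1 or PEA2 library (6 settings, limma FDR 0.038 to 0.049), and MAFF passed without PEO4 replicate 3 (limma FDR 0.047). With the 3 pair differences as the replicates, 0 of 8 genes passed by limma, and 1 gene, EGR1, had an unadjusted p below 0.05.

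Ordered by level, the 6 lines formed a different sequence for each gene. For FOSL1, FOSL2 and JUN, CP70 lay between A2780 and the serous lines. It was nearer to the next serous line (gaps of 1.40, 2.17 and 2.33 in log2) than to A2780 (4.67, 3.17 and 4.25). FOSL1 ran from PEA1 (mean log2 8.93 ± 0.12, SD) through PEA2 (7.88 ± 0.22), PEO4 (6.80 ± 0.23), PEO1 (6.66 ± 0.15) and CP70 (5.27 ± 0.12) to A2780 (0.60 ± 0.61), and the neighbours PEO4 and PEO1 overlapped. JUN was highest in PEO4 (6.80 ± 0.15) and PEA1 (6.56 ± 0.20), whose libraries overlapped, as did those of PEA2 (5.54 ± 0.12) and PEO1 (5.22 ± 0.21). The order for EGR1 was PEA2 (6.35 ± 0.051), PEO4 (5.84 ± 0.11), CP70 (5.83 ± 0.12), PEA1 (5.2 ± 0.043), A2780 (3.89 ± 0.38) and PEO1 (3.23 ± 0.11), with an overlap between PEO4 and CP70. JUND varied least, from 6.82 ± 0.049 in CP70 to 5.06 ± 0.14 in PEA1. The gap between the highest and the lowest line was 8.33 in log2 for FOSL1 and 8.15 for JUN, at the 94.4th and 93.6th percentile of all genes, and 1.77 for JUND, at the 46th. The median gap was 3.65 over the 8 genes and 1.88 over all genes. The spread within lines was widest for JUN (residual SD 0.64 in log2, 89.7th percentile) and FOS (0.44, 78.6th percentile), and the median over all genes was 0.24.

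The genes whose levels followed each member most closely over the 18 libraries were found by Pearson's r among 9942 genes with a mean log2 value above 3. These correlations are descriptions, since the libraries fall into 6 lines. FOSL2 was followed by SERPINB8 (r = 0.99), LGALS3BP (0.98) and SP100 (0.98). FOSL1 was followed by MYEOV, LAMB1 and HLA-B (0.98 for each). For JUN they were SGCE (0.97), ZNF462 (0.97) and MSL3P1 (0.97), and for MAFF NIPSNAP1, HMGCS1 and PACSIN2 (0.95 for each). EGR1 was followed by CLIC1 (0.94), TMEM30A (0.94) and TCFL5 (0.91), and FOS by KLHDC10 (0.92), KDM5A (0.92) and SAMD8 (0.88).

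Other partners of the FOS and JUN proteins were measured too. The counts of each list here and below stand beside the shares of all genes. Of all genes 22.2% rose and 17.7% fell in CP70, 32.5% and 29.4% in PEA2, and 19.6% and 21.9% in PEO4. The medians over all genes were -0.025, 0.0053 and -0.017 in log2. Of 12 further AP-1 and small MAF genes, 5 were in the table (JDP2, ATF2, ATF7, MAFG and MAFK). CP70 showed a rise of 1 of the 5 and a fall of 0 against A2780, PEA2 a rise of 2 and a fall of 1 against PEA1, and PEO4 a rise of 2 and a fall of 0 against PEO1. MAFK, a sister of MAFF, rose in the same pair as MAFF, from 1.18 ± 1.0 in PEA1 to 4.22 ± 0.026 in PEA2 (log2 level, SD, n = 3), by 3.03 in log2 (limma, FDR 7.1e-06).

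Upstream of these genes, 22 genes of the MAP kinase cascade were measured. Of these, 8 rose and 1 fell in CP70, 12 rose and 5 fell in PEA2, and 5 rose and 8 fell in PEO4, each against its sensitive line. Their median log2 fold changes were 0.21, 0.50 and -0.10. MAPK10, which encodes the JNK3 kinase, went from 18 to 20 reads in each PEA1 library to 0 to 2 reads in each PEA2 library. MAP2K6, a kinase that activates p38, went from 38 to 49 reads to 1 to 3 reads (limma, FDR 7.5e-07 for MAPK10 and 2.7e-13 for MAP2K6). Of the 8 genes of serum response factor and its partners, 3 rose and 1 fell in CP70, 4 rose and 0 fell in PEA2, and 0 rose and 2 fell in PEO4. MYOCD, a coactivator of serum response factor known from smooth muscle, had 0 reads in each PEA1 library and 41 to 49 reads in each PEA2 library, at least 9.37-fold higher when 3 reads per PEA1 library are taken as the floor. Of 9 genes for the turnover of JUN and FOS and the corepression of EGR1, 2, 3 and 3 rose and 3, 2 and 1 fell in the A2780, PEA and PEO pairs. Of all genes 22.2%, 32.5% and 19.6% rose and 17.7%, 29.4% and 21.9% fell. No gene of this list passed |log2FC| above 2.

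Of a list of other immediate early genes, 28 were in the table. From A2780 to CP70 13 rose, 3 fell and 12 did not pass, with a median log2 fold change of 0.66. The PEA pair had 18 that rose and 4 that fell (median 1.07), and the PEO pair 7 that rose and 9 that fell (median -0.32). KLF6, a zinc finger factor, rose in the A2780 pair from 4.85 ± 0.17 to 7.33 ± 0.093 (log2 level, SD, n = 3, limma, FDR 2.0e-14). PTGS2, the inducible cyclooxygenase, rose from 0.050 ± 0.52 to 2.39 ± 0.28 in the A2780 pair and from 1.77 ± 0.48 to 7.03 ± 0.10 in the PEA pair (limma, FDR 9.9e-05 and 1.2e-09). SGK1, a kinase induced by serum, had 0 to 2 reads in A2780 and 5 to 16 reads in CP70 (limma, FDR 5.2e-05). In PEA2 HBEGF, a ligand of the EGF receptor, rose by 4.31 in log2 (limma, FDR 1.1e-08), and NR4A1, an orphan nuclear receptor, had 21 to 40 reads against 0 to 1 in PEA1 (limma, FDR 4.5e-09). In PEO4 IER3, a survival factor of stressed cells, fell by 2.78 in log2 and DUSP2, a phosphatase of MAP kinases, rose by 2.40 (limma, FDR 3.5e-09 and 0.0017).

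Of 24 textbook targets of AP-1, 20 were in the table. CP70 had 11 that rose and 1 that fell, PEA2 had 10 and 1, and PEO4 had 7 and 6, with medians of 0.68, 0.66 and 0.36 in log2. TIMP1, an inhibitor of matrix metalloproteinases, rose by 2.62 in log2 in CP70, and PLAU, the urokinase, had 1 to 3 reads in A2780 and 15 to 24 in CP70 (limma, FDR 7.4e-14 and 1.2e-11). IL8, which encodes a chemokine for neutrophils, had 0 reads in each PEA1 library and 1246 to 2040 in each PEA2 library, at least 322-fold higher with 3 reads per PEA1 library as the floor. In the PEO pair IL8 went the other way, from 61 to 194 reads in PEO1 to 0 to 6 reads in PEO4 (limma, FDR 1.7e-06). The collagenase gene MMP1 had 0 reads in PEA1 and 17 to 46 in PEA2, at least 6.42-fold higher by the same floor. SPP1, which encodes osteopontin, fell by 7.33 in log2 in the PEA pair (limma, FDR 1.6e-09). MMP3, the stromelysin gene, had 0 reads in PEO1 and 2 to 4 in PEO4, close to the floor.

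**Figure D4:**
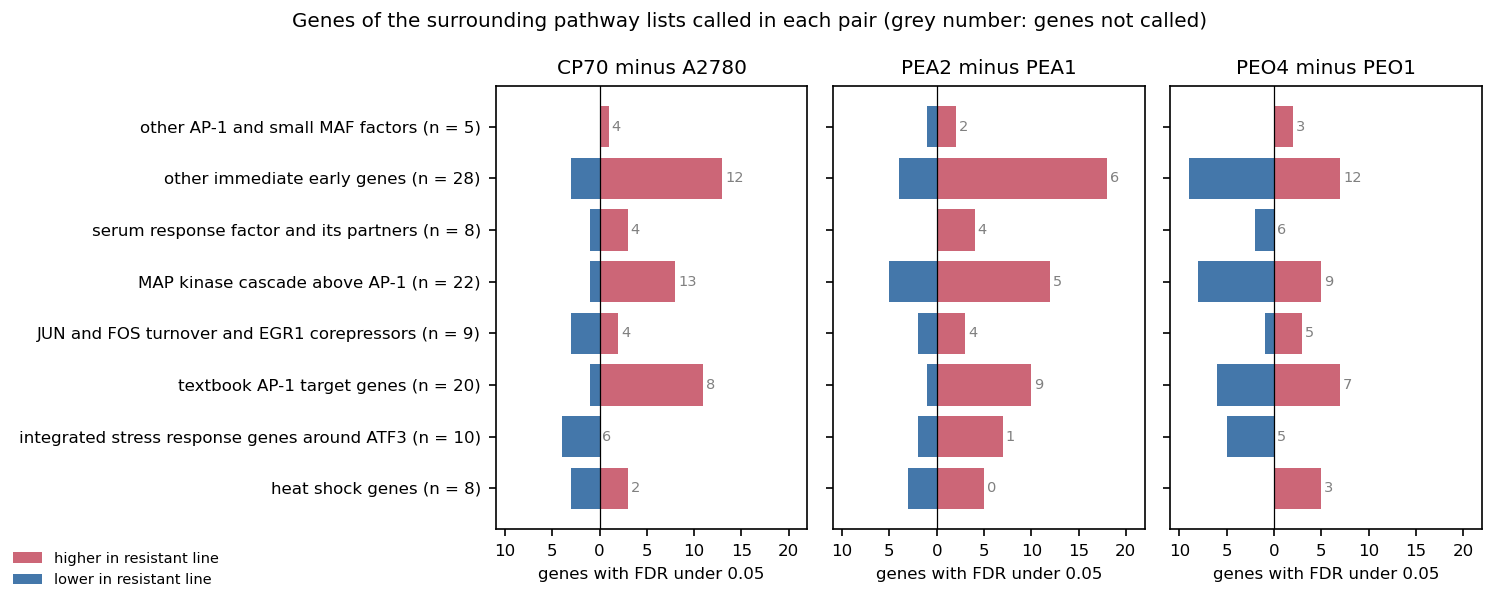
Number of genes of each list that were higher (red, to the right) or lower (blue, to the left) in the resistant line at an FDR below 0.05 by limma, for the 3 pairs. Grey numbers count the genes that did not pass. In the PEA pair 18 of 28 other immediate early genes were higher, against 7 in the PEO pair, where 9 were lower. Of all genes, 32.5% were higher in the PEA pair, and 19.6% were higher and 21.9% lower in the PEO pair.

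With ATF3 not analysed here, 10 genes of the integrated stress response, which ATF4 and ATF3 serve, were described in its place. By limma 0 rose and 4 fell in CP70, 7 rose and 2 fell in PEA2, and 0 rose and 5 fell in PEO4. TRIB3, a pseudokinase induced by ATF4, rose in the PEA pair (5.01 ± 0.25 to 7.39 ± 0.11) and fell in the PEO pair (4.87 ± 0.27 to 2.19 ± 0.51; log2 level, SD, n = 3, limma, FDR 7.1e-09 and 4.2e-09). CHAC1, an enzyme that degrades glutathione, fell by 2.73 in log2 in the A2780 pair (limma, FDR 6.3e-05). Since immediate early genes also answer to handling, 8 heat shock genes were set beside them. Of these 3 rose and 3 fell in CP70, 5 rose and 3 fell in PEA2, and 5 rose and 0 fell in PEO4. HSPA1A, the inducible HSP70, stood at 6.93 ± 0.25 in A2780 and 5.60 ± 0.040 in CP70, at 6.94 ± 0.047 in PEA1 and 7.93 ± 0.10 in PEA2, and at 7.70 ± 0.092 in PEO1 and 9.08 ± 0.18 in PEO4 (log2 level, SD, n = 3). HSPA1A was lower in CP70, where EGR1 was higher, and higher in PEA2 and PEO4, where EGR1 and FOS were higher. Other genes of this list differed from it in CP70. BAG3 rose in all 3 pairs, by 0.39, 0.78 and 0.44 in log2 (limma, FDR 0.0095, 6.0e-06 and 0.0040). DNAJB1 rose in CP70 and PEA2, by 0.50 and 0.98 (limma, FDR 0.0024 and 7.3e-07), and did not pass in PEO4 (limma, FDR 0.90). HSPB1 went from 389 to 714 reads in A2780 to 1 to 2 reads in CP70. For each list above with 0 genes called in a direction by limma, 0 also had an unadjusted p below 0.05 in that direction. The summed level of the 8 heat shock genes stayed between 4929 and 7308 CPM in all libraries. HSPA8 and HSP90AA1, the highest of the 8 in every line, made up most of this sum, so it says little about the other genes. The part of handling in the levels of the immediate early genes was not tested.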

How the data were processed

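Per the labels and the study's methods, featureCounts was used to count reads on the genes of hg19, and limma to normalize them (Bowtie2 is also among the tools in the submitters' processing notes). The deposited values are log2 CPM (log2 of the library-scaled read count after 0.5 reads were added) for 12853 genes. Whole reads were recovered from 100% of the values, within 0.05 reads, and gave depths, floors and levels per kilobase. Counting intervals and floors cover counting error only.

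Lines were compared with limma 3.58.1 (R 4.3.3, variance trend) on all 18 libraries together, 6 line means sharing 1 spread, and the code was tested on simulated data. The members and gene lists were chosen with earlier results of these data known. Each list is named by up to 3 genes a pair with the largest |log2FC| above 2, an FDR below 0.05 and no overlap of libraries, and each member with |log2FC| above 2 by its 3 most correlated genes. HSPA1A, BAG3, DNAJB1, HSPA8, HSP90AA1, MSLN and, in the PEA pair, the fibroblast markers other than COL1A1 fall outside this rule. They were chosen after their values were seen. Some results under this rule are not reported here. Alternatives were quantile normalization, voom weights, a filter on mean log2 above 0, 2 added reads, no trend, each pair alone, |log2FC| above 1, a replicate block, pair differences as replicates and leaving out each library. ATF3 and BATF3 were not analysed here.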

Additional observations from a re-analysis of the deposited data

Results flagged for a closer look

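The change from sensitive to resistant line differed between pairs for many of the genes, by a direct test of the difference in the limma fit at an FDR below 0.05. All values here are differences of log2 fold changes, the first pair minus the second. With the PEA pair set against the A2780 pair, the difference was 2.84 for FOS, -5.72 for FOSL1, -3.24 for FOSL2, -5.26 for JUN, 1.02 for JUNB, -0.79 for EGR1 and 2.77 for MAFF. With the PEO pair set against the A2780 pair it was 2.59 for FOS, -4.53 for FOSL1, -2.76 for FOSL2, -2.67 for JUN, -0.89 for JUNB, -0.88 for JUND, 0.67 for EGR1 and -1.06 for MAFF. Between the PEO and PEA pairs it was 1.18 for FOSL1, 2.59 for JUN, -1.91 for JUNB, -1.19 for JUND, 1.46 for EGR1 and -3.83 for MAFF. Differences of this kind passed for 47.5% to 58.7% of all genes. Between the PEO and A2780 pairs, 3 of these differences were lost under other settings. That for MAFF did not pass with voom weights or without A2780 replicate 3, CP70 replicate 3, PEO1 replicate 2, PEO1 replicate 3 or PEO4 replicate 3 (limma FDR 0.081, 0.053, 0.070, 0.068, 0.052 and 0.076). That for EGR1 did not pass without A2780 replicate 2 (limma FDR 0.054). The difference for JUN between the PEO and A2780 pairs did not pass after quantile normalization (-1.30, limma FDR 0.12).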

How the results depend on the processing

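Values for single genes under other settings were sorted by whether they kept their direction and side of the threshold. Of log2 fold changes in a pair, 298 kept both, 7 lost a call, 5 gained one and 2 changed sign. For differences between pairs, 418 kept both, 8 lost a call, 2 gained one and 4 changed sign. In the model over all pairs, 165 kept both, 27 lost a call, 7 gained one and 1 changed sign. The sign changes were all in values that had not passed. They were FOS between the PEO and PEA pairs (0.092 with quantile normalization, 0.054 with 2 reads added, -0.48 to 0.11 with a library left out), FOSL1 in the model over all pairs with voom weights (-0.32), and FOSL2 in the PEA pair (-0.19 to 0.067 with a library left out). Called genes of the 8 in the PEO pair were 5 with quantile normalization, where FOSL2 and MAFF passed (limma FDR 0.026 and 0.020), 4 with voom weights or each pair fitted alone, where FOSL2 passed, and 3 to 4 with a library left out. With |log2FC| above 1 in place of 2, 7 genes passed in PEA2 and 3 in PEO4, beside 33.6% and 18.8% of all genes. At the bound of 2, the PEA count was 1 with 2 reads added and 1 to 2 with a library left out (1 without PEA1 replicate 1 or PEA2 replicate 3). The PEO count was 2 with quantile normalization and 1 to 2 with a library left out (2 without PEO1 replicate 1 or PEO4 replicate 1). JUN in the PEA pair also lost its call without the variance trend (limma FDR 0.083). The model over all pairs called 2 genes (FOS and EGR1) with voom weights, 0 with pair differences as replicates and 4 to 5 with a library left out. The cause of these changes was not tested.

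Same-numbered libraries did not deviate together (correlations from -0.12 to 0.09), so the numbers were not taken to pair them. A replicate block left the same genes of the 8 called in each pair. With the replicate block the model over all pairs called 1 gene, EGR1. The list of 5 other AP-1 and small MAF genes had 0 calls in the A2780 pair with the replicate block and 0 with quantile normalization, against 1. Depth limits FOS in PEA1 and JUN and FOSL1 in A2780, which rest on 9 reads or fewer per library.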
